A study of Arabidopsis thaliana with 24 samples.

Results

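The comparison set roots of PEP45, a line with POPEYE (PYE) placed under a tissue promoter, against roots of pye-1, a mutant of PYE, both without iron. It covered the 18821 of 33602 genes that had at least 1 RPKM (reads per kilobase of gene, scaled to the number of reads in the library) in either group. PEP45 roots were from Arabidopsis thaliana plants with the genotype label PEP45 and a GFP localization written C-EN-V, a code the labels do not spell out. The authors' deposited table of promoters pairs the name PEP with the promoter of AT1G09750 and with activity in the cortex, and its title says that the promoter drives PYE. Neither the background that the PEP45 plants carry, nor whether they come from 1 transformed line, is given in the sources used here. The pye-1 roots carry the genotype label PYE in the sample records and the name pye-1 in the series' design, with no GFP localization. The other iron-deficient groups were the lines SHR23 (V-EN), WER13 (EP-C), WER65 (EP) and PPL (V-EN-C-EP) and wild type (WT), and one further wild-type group had iron. All plants were 7 days old. Those of the 7 iron-deficient groups spent 4 days on Murashige and Skoog medium with 0.1 mM FeEDTA and then 3 days on medium without it that held 300 µM ferrozine, an iron chelator, while wild type with iron stayed on iron.

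PYE is a basic helix-loop-helix transcription factor that is made in iron-deficient roots and represses genes of iron storage and iron movement inside the plant. Uptake of iron at the root surface is run by FIT with the subgroup Ib factors BHLH38, BHLH39, BHLH100 and BHLH101, which turn on the ferric reductase FRO2, the transporter IRT1 and the synthesis of coumarins that mobilise iron. The E3 ligase BTS and small IRON MAN peptides tune that response. In pye-1 roots, storage genes such as the ferritin FER1 stay on without iron, so a comparison with pye-1 asks how roots with PYE driven by another promoter differ from roots of the mutant.

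Each of the 8 groups had 3 samples, and the deposited RPKM table holds 1 mean per group. No SD, standard error or test between PEP45 and pye-1 could therefore be had, and every value below is the authors' mean with no error of its own. Differences are of log2(RPKM + 0.5), PEP45 minus pye-1, and a gene counts as higher or lower where the difference is at least 1 either way, which is 2-fold on that scale and understates the change of low genes. Steps between low values corresponded to effective libraries of 15639400 to 22881300 reads in PEP45 and 20070800 to 24011400 reads in pye-1, so that 1 RPKM of a gene of 1 kilobase stood for about 57.8 reads over the PEP45 libraries and 66.5 over the pye-1 libraries. The roots were whole, so fewer cells of a type and less RNA per cell cannot be told apart.

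PEP45 and pye-1 roots were close to each other across most genes. At least 2-fold differences were seen in 249 of 18821 genes (1.32%), 198 of them higher in PEP45 (1.05%) and 51 lower (0.271%). The median difference was 0.000555, and the 5th and 95th percentiles were -0.34 and 0.46. Of the 198 higher genes, 114 had under 5 RPKM in the higher group, 64 had 5 to under 20 RPKM and 20 had 20 RPKM or more. Of the 51 lower genes, the same bands held 24, 19 and 8. At the edges of the rule, AT5G27810 was counted as higher with a difference of 1.0016 while AT2G45180 was not with 0.999, and AT5G12340 was counted as lower with -1.01 while NIT2 was not with -0.99. The minimum of 1 RPKM kept AT2G45126 at 1.0008 RPKM and left out AT4G11400 at 0.999 RPKM.

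For scale, the other lines set against the same pye-1 column gave more such genes: 398 in WER65 (2.12%), 518 in WER13 (2.77%), 768 in SHR23 (4.09%) and 1282 in PPL (6.75%). Against iron-deficient wild type, PEP45 had 1561 genes at least 2-fold apart (8.15%), and pye-1 had 1701 (8.91%). These counts share the pye-1 or the wild-type column and carry no test of their difference. In the authors' deposited tables of significant genes, which list a q-value under 0.05 for each gene, 3678 genes were listed for PEP45 against iron-deficient wild type and 3878 for pye-1 against it. No deposited table sets PEP45 against pye-1.

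**Figure D1:**
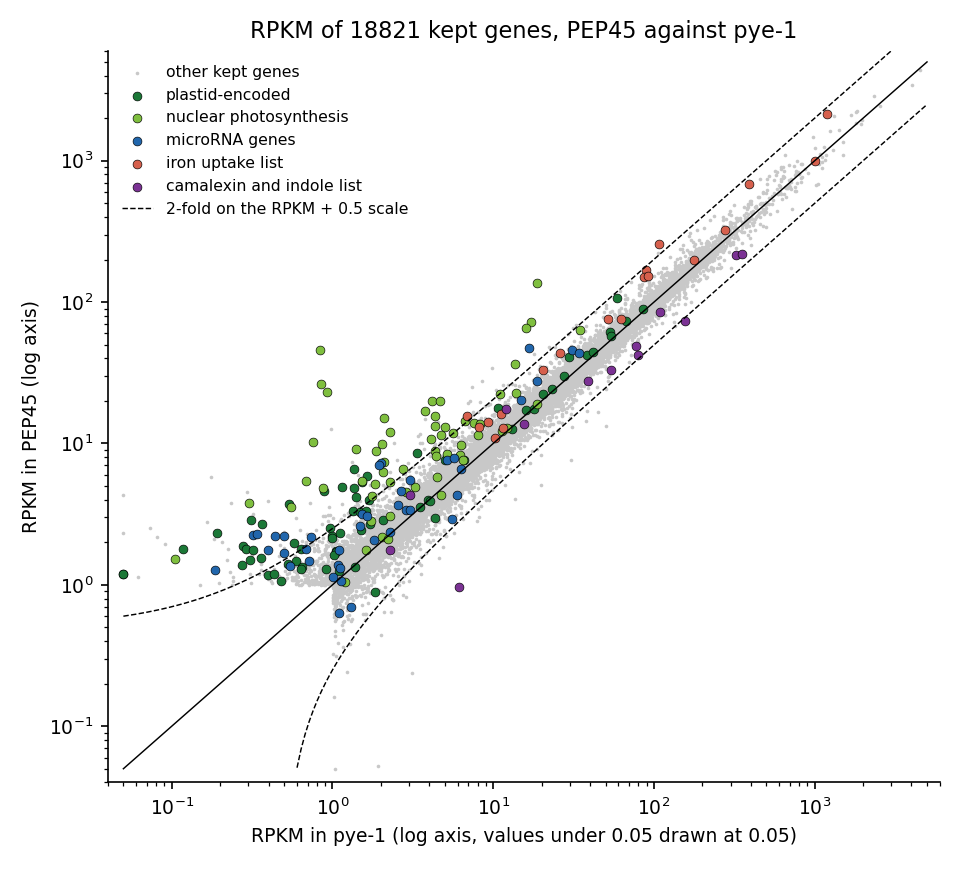
Mean RPKM in PEP45 (vertical) against pye-1 (horizontal) for the 18821 kept genes, both axes logarithmic. Dashed lines mark 2-fold differences after adding 0.5 RPKM. Green points (photosynthesis transcripts) and blue points (microRNA genes) lie mostly above the line of equality, most red points (iron uptake) lie above it, and most purple points (camalexin and indole defence) lie below it.

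PYE itself (AT3G47640, TAIR10 coordinates chr3:17567126-17569394) was present in both groups. It had 28.9 RPKM in PEP45, 45.8 in SHR23, 30.3 in WER13, 27.5 in WER65, 25.3 in PPL, 20.6 in pye-1, 45.1 in wild type without iron and 11.0 in wild type with iron. The difference between PEP45 and pye-1 was 0.48, below the 2-fold rule. A value over the whole gene does not separate transcripts of the introduced copy, the resident gene and any partial transcript of the mutant allele. PYE fell in both PEP45 and pye-1 in the authors' deposited tables, each relative to iron-deficient wild type. AT1G09750, whose promoter gives PEP45 its name, had 0.492 RPKM in PEP45 and 0.502 RPKM in pye-1, under the minimum, against 2.46 RPKM in wild type with iron. The other 2 cortex markers, CO2 and C1, were also under 1 RPKM in both groups, so the cortex label could not be checked against its markers here. SCR, a regulator of endodermis and cortex identity, had 13.5 RPKM in PEP45 and 12.04 RPKM in pye-1.

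Genes of iron uptake were mostly higher in PEP45, by less than 2-fold in most cases. Of 19 kept genes, 18 were above 0 and 2 were at least 2-fold higher, with a median difference of 0.65. Over all kept genes the median was 0.000555, with 50.2% above 0 and 1.05% at least 2-fold higher. The 2 uptake genes past 2-fold were S8H (AT3G12900), which makes the coumarin fraxetin, and the transporter gene ZIP8 (AT5G45105). S8H had 256 RPKM in PEP45, 730 in SHR23, 572 in WER13, 348 in WER65, 1062 in PPL, 107 in pye-1, 1492 in wild type without iron and 0.999 in wild type with iron. ZIP8 had 15.7 RPKM in PEP45, 31.8 in SHR23, 22.6 in WER13, 17.3 in WER65, 67.3 in PPL, 6.89 in pye-1, 97.6 in wild type without iron and 0.474 in wild type with iron. For both genes PEP45 was the second lowest of the 7 iron-deficient groups and pye-1 the lowest. The same order held for 17 of the 19 uptake genes, the exceptions being MTP3, where WER65 was also lower than PEP45, and AHA2, where PEP45 was lowest.

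CYP82C4, which converts fraxetin to sideretin, had 170 RPKM in PEP45, 89.4 in pye-1 and 1016 in wild type without iron, a difference of 0.92 between the first pair. IRT1, the main iron transporter of the root surface, had 2141 RPKM in PEP45, 1194 in pye-1 and 3853 in wild type without iron, a difference of 0.84. FRO2 had 682 RPKM in PEP45, 392 in pye-1 and 1966 in wild type without iron, a difference of 0.80. MYB10 (0.80), MTP3 (0.74) and IRT2 (0.72) differed by about as much on the log2 scale. FIT, the factor upstream of these genes, had 76.0 RPKM in PEP45, 62.5 in pye-1 and 240 in wild type without iron, a difference of 0.28, smaller than those of IRT1 and FRO2. The authors' deposited tables list 17 of the 19 uptake genes as having fallen in PEP45 and 18 of 19 as having fallen in pye-1, each relative to iron-deficient wild type, where 8.73% and 9.19% of all kept genes fell. AHA2 was listed in neither and MYB10 for pye-1 alone. These 2 tables share the wild-type libraries.

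Regulators of the iron response differed less. Of 17 kept genes none was past 2-fold, 14 were above 0 and the median difference was 0.39. The subgroup Ib factors had similar differences, with BHLH100 at 906 RPKM in PEP45, 618 in pye-1 and 759 in wild type without iron (0.55), and BHLH38 at 899 RPKM in PEP45, 639 in pye-1 and 744 in wild type without iron (0.49). BHLH101 had 227 RPKM in PEP45 and 164 RPKM in pye-1 (0.47), and BHLH39 had 840 RPKM in PEP45 and 642 RPKM in pye-1 (0.39). The IRON MAN genes AT1G47395, AT1G47400 and AT2G30766 had 872, 388 and 60.8 RPKM in PEP45 and 621, 280 and 46.3 RPKM in pye-1, with differences of 0.49, 0.47 and 0.39. Unlike the uptake genes, the subgroup Ib and IRON MAN genes were higher by value in PEP45 than in wild type without iron. The IRON MAN genes were listed as having risen in the authors' deposited table for that pair, and the subgroup Ib factors were not listed. BTS had 217 RPKM in PEP45, 195 in pye-1 and 138 in wild type without iron. BHLH115, BHLH104 and BHLH121 were the members below 0, at -0.06, -0.11 and -0.05.

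Genes of iron storage and of iron movement in the plant, the best known targets of PYE, stood near their pye-1 levels in PEP45. None of 9 kept storage genes and none of 14 kept transport genes was past 2-fold, with median differences of 0.12 and 0.18. FER1 had 59.9 RPKM in PEP45, 41.3 in SHR23, 57.9 in WER13, 56.5 in WER65, 2.79 in PPL, 53.5 in pye-1, 3.34 in wild type without iron and 36.2 in wild type with iron. VTL2, a vacuolar iron transporter-like gene, had 519 RPKM in PEP45, 511 in SHR23, 486 in WER13, 460 in WER65, 5.58 in PPL, 404 in pye-1, 5.96 in wild type without iron and 2.44 in wild type with iron. For both genes PEP45 was the highest of the 7 iron-deficient groups, and PPL and wild type without iron were far below the other 5. NEET, which encodes an iron-sulfur cluster protein, had 29.95 RPKM in PEP45, 19.96 in pye-1 and 0.0365 in wild type without iron, a difference of 0.57 that was the largest of the list together with that of VTL4 (6.05 RPKM in PEP45 and 3.92 RPKM in pye-1, 0.57).

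VTL1 and FER4 ran the other way by small amounts, with 35.9 RPKM in PEP45 and 39.6 RPKM in pye-1 for VTL1 (-0.14), and 4.53 RPKM in PEP45 and 5.07 RPKM in pye-1 for FER4 (-0.15). VTL1 differed more among the lines, at 8.38 RPKM in SHR23 and 30.4 and 35.1 RPKM in WER13 and WER65. NAS3, a nicotianamine synthase gene, had 29.9 RPKM in PEP45, 24.8 in pye-1 and was listed at 0 in wild type without iron. NAS4 had 180 RPKM in PEP45 and 142 RPKM in pye-1 (0.34), and NAS1 had 49.0 RPKM in PEP45, 36.3 in pye-1 and 207 in wild type without iron (0.43). ZIF1, a vacuolar nicotianamine transporter, had 230 RPKM in PEP45, 428 in SHR23 and 194 in pye-1 (0.25). FRO3, a ferric reductase of mitochondria, had 517 RPKM in PEP45 and 395 RPKM in pye-1 (0.39), and the long-distance transporter OPT3 had 762 RPKM in PEP45 and 647 RPKM in pye-1 (0.24). ZIFL1 had 58.3 RPKM in PEP45 and 77.1 RPKM in pye-1, the lowest difference of the transport list (-0.40). All 9 kept storage genes rose in PEP45 and all 9 rose in pye-1 in the authors' deposited tables, relative to the same wild-type libraries, where 8.79% and 9.26% of all kept genes rose.

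**Figure D2:**
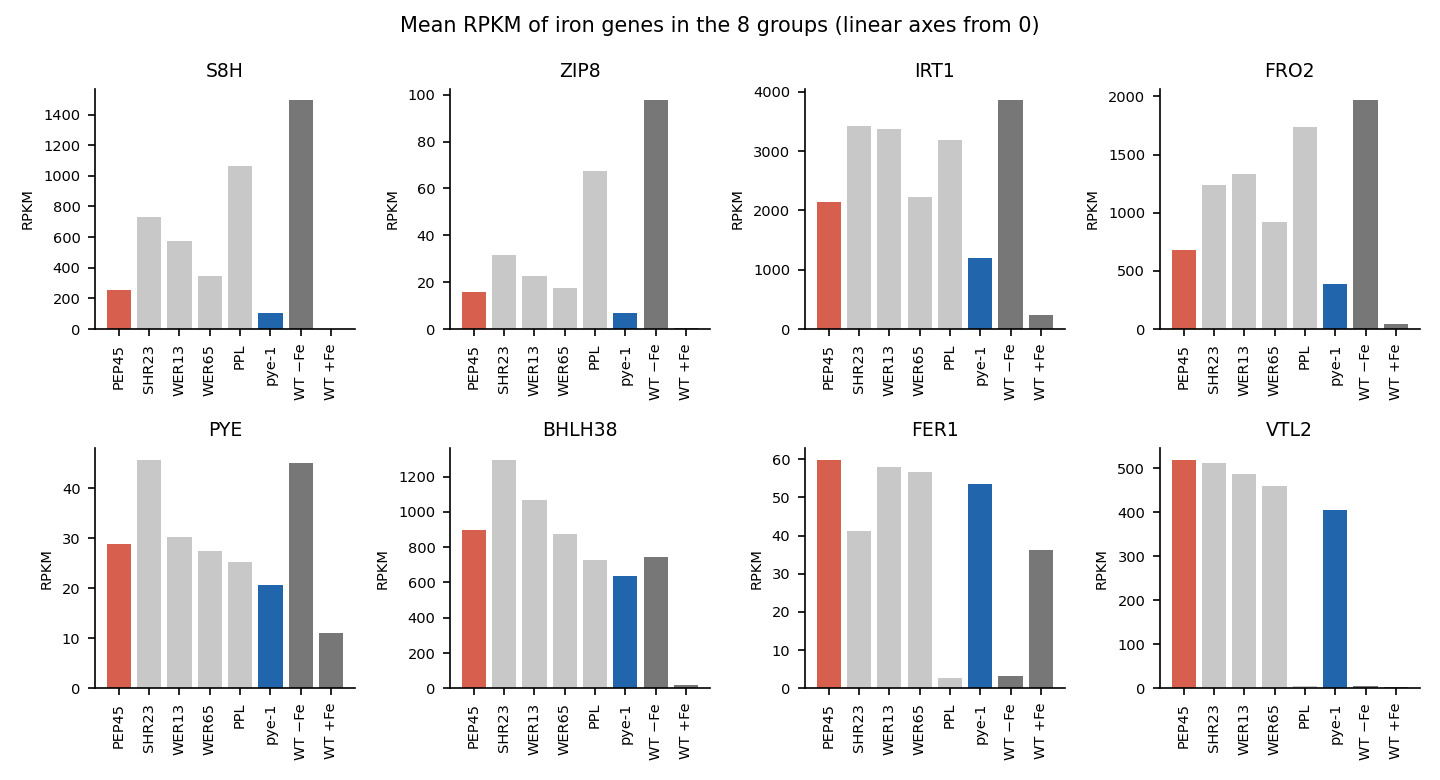
Mean RPKM of 8 iron genes in the 8 groups, on linear axes that start at 0, with PEP45 in red, pye-1 in blue, other lines in light grey and wild type in dark grey. For S8H, ZIP8, IRT1 and FRO2, PEP45 stands above pye-1 and well below wild type without iron (WT −Fe), whereas for FER1 and VTL2 both stand far above it.

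Photosynthesis transcripts made up the largest differences. The nuclear photosynthesis list had 23 kept genes of 24, all above 0 and 19 of them at least 2-fold higher in PEP45, with a median difference of 1.73. The shares over all kept genes were 50.2% above 0 and 1.05% at least 2-fold higher. Nuclear genes with a photosynthesis product name made up 55 of the 18821 kept genes. Of the 12 genes with the largest positive difference among those with at least 5 RPKM in the higher group, 10 belong to photosynthesis: LHCB1.2, LHB1B1, LHCB1.1, LHCB1.3, RBCS2B, RBCS3B, RBCS1B, PSAE-1, PSAL and PSAO. The remaining 2 were OEP6 (AT3G63160), an outer envelope protein of plastids, and TGG1 (AT5G26000), a myrosinase, which had 5.75 RPKM in PEP45, 0.175 in pye-1 and 2.30 in wild type without iron. The authors' deposited tables list no gene of the photosynthesis list for PEP45 or for pye-1, although by value 20 of the 23 were at least 2-fold lower in pye-1 than in wild type without iron, where 8.91% of all genes were past 2-fold either way. Of the 55 kept nuclear genes with a photosynthesis product name, a class that overlaps the list, 3 rose in PEP45 and none fell, and 1 rose and 2 fell in pye-1, in the authors' deposited tables. Of all kept genes, 8.79% rose and 8.73% fell in PEP45, and 9.26% rose and 9.19% fell in pye-1. So few genes of the class were listed, and the counts give no direction for it.

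LHCB1.2 (AT1G29910), a chlorophyll a/b-binding protein of the light-harvesting antenna, had 45.6 RPKM in PEP45, 0.287 in SHR23, 0.464 in WER13, 0.711 in WER65, 0.413 in PPL, 0.842 in pye-1, 17.0 in wild type without iron and 2.51 in wild type with iron. Its difference of 5.10 was the largest of the comparison. LHCB1.1 (AT1G29920) had 23.2 RPKM in PEP45, 0.148 in SHR23, 0.035 in WER13, 0.0357 in WER65, 0.253 in PPL, 0.929 in pye-1, 26.2 in wild type without iron and 1.94 in wild type with iron. LHCB1.3 (AT1G29930) had 136.0 RPKM in PEP45, 5.16 in SHR23, 3.52 in WER13, 0.597 in WER65, 23.3 in PPL, 18.7 in pye-1, 107.7 in wild type without iron and 50.9 in wild type with iron. PEP45 and wild type without iron were thus the high groups for all 3 genes, and the lines SHR23, WER13 and WER65 were low. The 3 genes are near-identical neighbours, so how reads were split among them is uncertain. Genes beside them, CARB (30.4 RPKM in PEP45 and 33.3 RPKM in pye-1) and NRPA2 (18.8 RPKM in PEP45 and 21.8 RPKM in pye-1), differed little. RBCS1A, a small subunit of Rubisco, had 72.3 RPKM in PEP45, 14.4 in SHR23, 3.97 in WER13, 3.33 in WER65, 28.5 in PPL, 17.1 in pye-1, 62.6 in wild type without iron and 52.6 in wild type with iron. RBCS1B, RBCS2B and RBCS3B lie in tandem and share the limit on read splitting.

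The 3 LHCB1 promoters are shown because these neighbouring genes had some of the largest differences and moved together. They are the 250 bases upstream of each gene's start in RefSeq's TAIR10.1 annotation, read 5′ to 3′ on the gene's strand, at chr1:10473503-10473752 (minus strand), chr1:10475970-10476219 (minus strand) and chr1:10477635-10477884 (plus strand). Capitals mark the exact matches found to 5 searched motifs, of which these windows held AAAAATCT once, in LHCB1.1.
LHCB1.2: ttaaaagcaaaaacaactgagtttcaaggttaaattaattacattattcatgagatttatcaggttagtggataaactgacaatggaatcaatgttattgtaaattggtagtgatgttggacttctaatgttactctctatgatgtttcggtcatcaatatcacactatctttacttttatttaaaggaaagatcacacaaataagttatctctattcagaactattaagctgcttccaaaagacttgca
LHCB1.1: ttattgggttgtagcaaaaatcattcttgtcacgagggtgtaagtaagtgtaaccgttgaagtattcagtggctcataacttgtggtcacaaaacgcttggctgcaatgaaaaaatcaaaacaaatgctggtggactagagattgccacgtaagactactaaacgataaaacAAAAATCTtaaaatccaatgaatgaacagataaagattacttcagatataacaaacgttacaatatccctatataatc
LHCB1.3: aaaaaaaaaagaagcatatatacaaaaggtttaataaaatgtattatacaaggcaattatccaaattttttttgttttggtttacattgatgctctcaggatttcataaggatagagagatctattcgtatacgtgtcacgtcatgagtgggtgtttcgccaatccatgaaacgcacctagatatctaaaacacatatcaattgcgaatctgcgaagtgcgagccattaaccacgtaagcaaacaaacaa

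Over the whole list the median level was 13.2 RPKM in PEP45, 1.86 in SHR23, 0.698 in WER13, 0.656 in WER65, 5.28 in PPL, 4.34 in pye-1, 13.3 in wild type without iron and 15.3 in wild type with iron. The summed level was 529 RPKM in PEP45, 62.8 in SHR23, 32.9 in WER13, 31.5 in WER65, 164 in PPL, 129 in pye-1, 456 in wild type without iron and 487 in wild type with iron. By its list median and sum PEP45 therefore stood close to both wild-type groups, and pye-1 and PPL lay between them and the other 3 lines. Set against the other lines, PEP45 was at least 2-fold higher in 23 of 23 genes relative to SHR23, to WER13 and to WER65, where 1.6%, 1.76% and 1.61% of all genes were, and relative to wild type without iron 3 of 23 were at least 2-fold higher and none 2-fold lower, where 8.15% of all genes were past 2-fold either way. Roots had been separated with a razor, per the labels' protocols. These genes serve as markers of green tissue, and the part of green tissue in the other differences was not tested. Without the 129 kept plastid-encoded and nuclear photosynthesis genes, 188 of 18692 genes were at least 2-fold apart, 137 higher and 51 lower in PEP45, a setting added after the values were seen.

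Transcripts encoded in the plastid genome were also higher in PEP45 than in pye-1. Of 69 kept plastid-encoded genes, 63 were above 0 and 26 were at least 2-fold higher, with none 2-fold lower and a median difference of 0.83. Over all kept genes, 50.2% were above 0, 1.05% at least 2-fold higher and 0.271% at least 2-fold lower. PEP45 was the highest of the 7 iron-deficient groups in 49 of 69, against 1852 of all 18821 kept genes. The minimum of 1 RPKM was applied to PEP45 and pye-1 alone, which favours them over the other groups at such low levels. A gene kept through PEP45 alone is above 0 by that rule. These counts and the medians by group therefore follow in part from the rule. The median level of the 69 genes was 2.88 RPKM in PEP45, 0.870 in SHR23, 0.761 in WER13, 0.837 in WER65, 1.09 in PPL, 1.35 in pye-1, 1.40 in wild type without iron and 1.67 in wild type with iron. Their summed level was 813 RPKM in PEP45, 506 in SHR23, 441 in WER13, 425 in WER65, 675 in PPL, 629.7 in pye-1, 829 in wild type without iron and 1136 in wild type with iron. Wild type without iron thus stood near pye-1 by the median and near PEP45 by the sum. ATCG00130, named ATPF in the table and encoding a subunit of the plastid ATP synthase, had 2.88 RPKM in PEP45, 0.310 in pye-1 and 0.0651 in wild type without iron. ATCG00510, named PSAI and encoding a photosystem I subunit, had 3.70 RPKM in PEP45, 0.535 in pye-1 and 0.516 in wild type without iron. Both were chosen after their values were seen. The libraries were selected for poly(A) tails, which most plastid transcripts lack, so these levels are of the fraction that was caught. Of 18 kept mitochondrion-encoded genes, 4 were at least 2-fold higher and 1 was lower, where 1.05% and 0.271% of all kept genes were. Their median difference was 0.61, and the limit set by the minimum of 1 RPKM holds for them too.

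**Figure D3:**
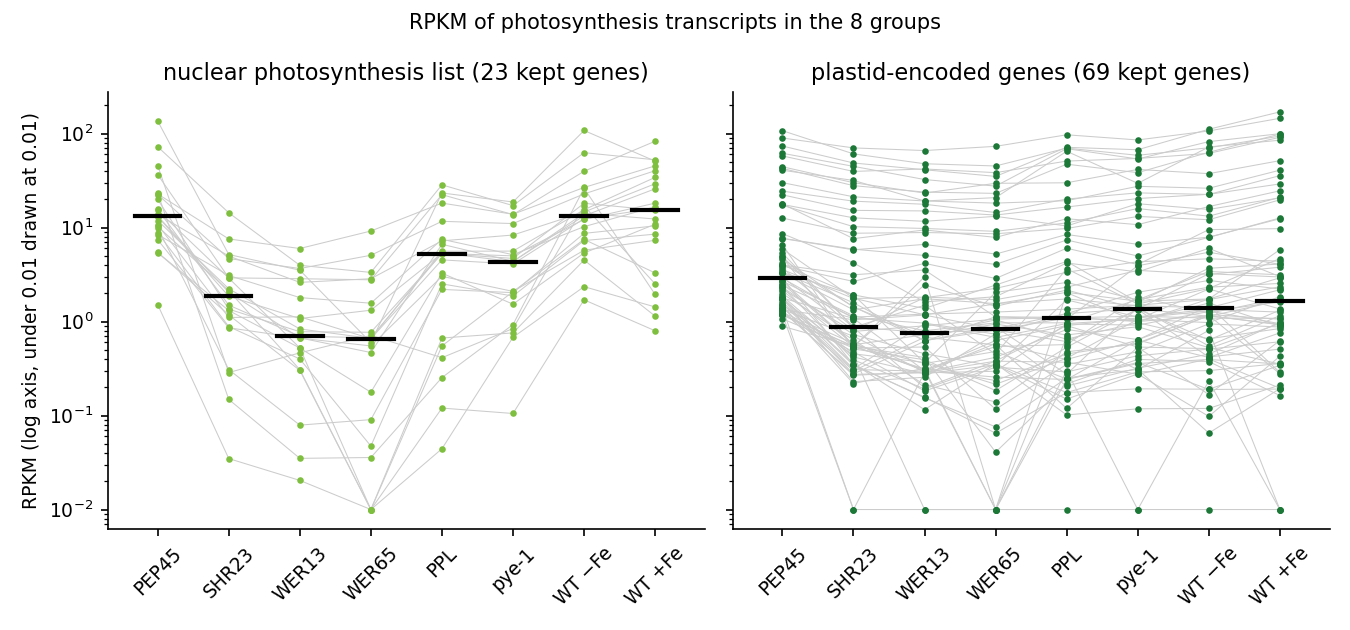
RPKM of the 23 kept genes of the nuclear photosynthesis list (left) and of the 69 kept plastid-encoded genes (right) in the 8 groups, on a logarithmic axis. Each point is a gene, grey lines join a gene across groups and black bars are medians. On the left the PEP45 median (13.2) is level with that of wild type without iron (13.3), and on the right the PEP45 median (2.88) is above that of every other group. Genes were kept for at least 1 RPKM in PEP45 or pye-1, which favours high values in them over the other groups.

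Defence genes of indole metabolism ran the other way. Of 13 kept genes on the camalexin and indole defence list, 11 were below 0, 2 were at least 2-fold lower in PEP45 and the median difference was -0.57. Over all kept genes, 9380 of 18821 were below 0 and 0.271% were at least 2-fold lower. CYP82C2 (AT4G31970), a cytochrome P450 of the 4-hydroxyindole-3-carbonylnitrile pathway, had 0.969 RPKM in PEP45, 1.15 in SHR23, 0.266 in WER13, 1.13 in WER65, 2.31 in PPL, 6.13 in pye-1, 0.874 in wild type without iron and 0.0817 in wild type with iron. Its difference of -2.17 was the lowest among genes with at least 5 RPKM. CYP71A12 (AT2G30750), an earlier enzyme of that pathway, had 74.0 RPKM in PEP45, 52.2 in SHR23, 53.3 in WER13, 79.9 in WER65, 163 in PPL, 156 in pye-1, 133 in wild type without iron and 1.00 in wild type with iron. So pye-1 stood alone at a high level of CYP82C2, whereas for CYP71A12 pye-1, PPL and wild type without iron were all high. CYP79B2, which makes indole-3-acetaldoxime, had 42.2 RPKM in PEP45 and 79.2 RPKM in pye-1 (-0.90), and GSTF6, a glutathione transferase of camalexin synthesis, had 218 RPKM in PEP45 and 354 RPKM in pye-1 (-0.70).

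The neighbouring genes AT1G26380 and AT1G26390 encode FAD-binding berberine-family oxidases and were among the 12 with the largest negative difference, counting genes with at least 5 RPKM in the higher group. AT1G26390 had 7.58 RPKM in PEP45, 4.06 in SHR23, 4.84 in WER13, 8.57 in WER65, 13.7 in PPL, 30.4 in pye-1, 10.4 in wild type without iron and 0.0863 in wild type with iron. AT1G26380 had 13.1 RPKM in PEP45, 7.36 in SHR23, 9.21 in WER13, 12.1 in WER65, 22.4 in PPL, 31.0 in pye-1, 21.2 in wild type without iron and 0.837 in wild type with iron. Next to them, AT1G26410 had 11.9 RPKM in PEP45 and 21.6 RPKM in pye-1 (-0.83), and AT1G26420 had 13.9 RPKM in PEP45 and 16.5 RPKM in pye-1 (-0.23), both named after their values were seen. Both CYP82C2 and AT1G26390 rose in pye-1 in the authors' deposited tables (q = 0.0012 and q = 0.000581) and were not listed for PEP45, while CYP71A12 and AT1G26380 fell in PEP45 and were not listed for pye-1, all relative to iron-deficient wild type.

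The promoters of CYP82C2 and CYP71A12 are shown because both genes act in one pathway and were past 2-fold together. They are the 250 bases upstream in TAIR10.1, at chr4:15462100-15462349 (plus strand) and chr2:13101372-13101621 (minus strand). Capitals mark TTGAC and its reverse complement GTCAA, the core of the W-box to which WRKY factors bind, with 3 matches in CYP82C2 and 2 in CYP71A12. This motif was added after the values were seen.
CYP82C2: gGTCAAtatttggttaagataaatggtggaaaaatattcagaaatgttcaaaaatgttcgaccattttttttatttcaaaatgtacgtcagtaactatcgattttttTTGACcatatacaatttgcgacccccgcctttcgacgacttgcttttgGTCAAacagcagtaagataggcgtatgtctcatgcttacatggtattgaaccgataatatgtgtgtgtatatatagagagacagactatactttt
CYP71A12: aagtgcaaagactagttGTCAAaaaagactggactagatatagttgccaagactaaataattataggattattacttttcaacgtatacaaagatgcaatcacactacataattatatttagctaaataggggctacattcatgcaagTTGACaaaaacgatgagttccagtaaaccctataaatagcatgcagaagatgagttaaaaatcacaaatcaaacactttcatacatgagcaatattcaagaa

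Matches to TTGAC on either strand stood in 45.6% of 18709 promoters of kept nuclear genes, in 38.6% of the 166 promoters of higher genes and in 55.1% of the 49 promoters of lower genes. CACGTG, the G-box, stood in 7.20% of all promoters, 12.05% of the higher and 2.04% of the lower genes, and in 4 of the 23 photosynthesis genes. AAAATATCT was in 2.45%, 4.22% and 0%, AAAAATCT in 6.66%, 7.83% and 4.08%, and GNATATNC in 5.44%, 1.205% and 12.2%, each given for all, higher and lower genes. Matches of different motifs may overlap, and a match is a description of letters, not of a bound site.

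Other lower genes differed in which groups were high. NRT2.1 (AT1G08090), a high-affinity nitrate transporter, had 13.2 RPKM in PEP45, 4.43 in SHR23, 11.0 in WER13, 26.2 in WER65, 2.76 in PPL, 50.4 in pye-1, 0.724 in wild type without iron and 1.27 in wild type with iron, a difference of -1.89. Of the 13 kept nitrate genes it was the only one past 2-fold, where 0.271% of all kept genes were at least 2-fold lower. The list's median was -0.11. NRT1.5, which loads nitrate into the xylem, had the opposite sign, with 405 RPKM in PEP45, 238 in pye-1 and 419 in wild type without iron (0.77). NRT1.8, which retrieves nitrate from the xylem, had 19.6 RPKM in PEP45, 31.4 in pye-1 and 34.7 in wild type without iron (-0.67), and NRT3.1, the partner protein of NRT2.1, had 95.9 RPKM in PEP45 and 134 RPKM in pye-1 (-0.48). NRT2.1 rose in both PEP45 and pye-1 relative to iron-deficient wild type in the authors' deposited tables.

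PLA2A, a patatin-like phospholipase, had 16.6 RPKM in PEP45, 44.9 in pye-1 and 12.1 in wild type without iron (-1.41). DIR5, a dirigent protein, had 14.5 RPKM in PEP45, 37.6 in pye-1 and 20.3 in wild type without iron (-1.35). AT1G26240, an extensin-like gene, had 5.11 RPKM in PEP45, 19.9 in pye-1 and 3.62 in wild type without iron (-1.86). GAD4, a glutamate decarboxylase, had 7.28 RPKM in PEP45, 16.8 in pye-1 and 2.33 in wild type without iron (-1.16). In these 4 genes pye-1 was the highest of the iron-deficient groups, as it was in 33 of the 51 lower genes. Over all kept genes it was highest in 3289 of 18821. The lower genes were picked for a high pye-1 value relative to PEP45, so their count was favoured by the rule. The peroxidase gene AT1G49570 and the transcription factor gene NAC3 had a different order, being highest in SHR23 at 33.4 and 12.8 RPKM, with 2.82 and 3.00 RPKM in PEP45 and 7.87 and 8.13 RPKM in pye-1. AT5G43570, a protease inhibitor gene, had 8.32 RPKM in PEP45, 18.6 in SHR23 and 19.7 in pye-1.

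AT1G14730 stood out as low in PEP45 alone. It encodes a protein of the cytochrome b561 and ferric reductase transmembrane family and had 4.04 RPKM in PEP45, 19.3 in SHR23, 16.2 in WER13, 13.4 in WER65, 13.2 in PPL, 13.7 in pye-1, 13.4 in wild type without iron and 20.5 in wild type with iron. Its neighbours XTH28 (22.1 RPKM in PEP45 and 24.6 RPKM in pye-1) and TTA1 (83.9 RPKM in PEP45 and 78.0 RPKM in pye-1) differed little. AT1G28310, a Dof-type zinc finger gene named after its values were seen, had 0.236 RPKM in PEP45, 3.43 in SHR23, 3.46 in WER13, 2.77 in WER65, 3.69 in PPL, 3.12 in pye-1, 3.82 in wild type without iron and 5.30 in wild type with iron. In the authors' deposited table both genes fell in PEP45 relative to iron-deficient wild type, with q = 3.16e-05 for AT1G14730 and q = 1.27e-06 for AT1G28310. MRD1 had 0.052 RPKM in PEP45, 2.77 in SHR23, 0.0358 in WER13, 0 in WER65, 0.0457 in PPL, 1.93 in pye-1 and 1.96 in wild type without iron, so it was near 0 in 4 of the 5 lines.

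**Figure D4:**
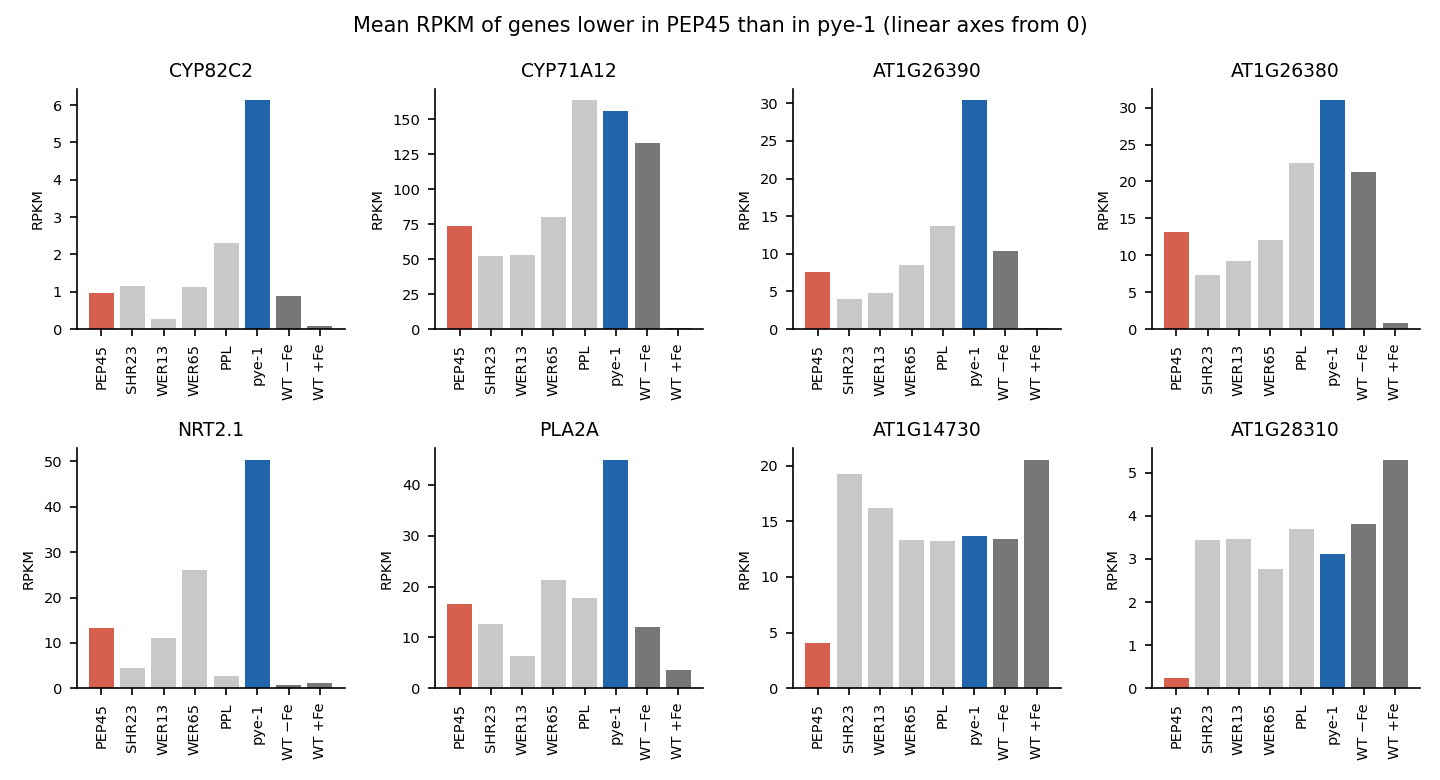
Mean RPKM of 8 genes lower in PEP45 than in pye-1 in the 8 groups, on linear axes that start at 0, with PEP45 in red, pye-1 in blue, other lines in light grey and wild type in dark grey. CYP82C2, AT1G26390, NRT2.1 and PLA2A peak in pye-1, while AT1G14730 and AT1G28310 are low in PEP45 alone.

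Terpene and jasmonate genes also leaned lower. Over all kept genes, 9380 of 18821 were below 0 and 0.271% were at least 2-fold lower. Of 12 kept genes of triterpene and terpene synthesis, 10 were below 0 and 1 was past 2-fold, with a median of -0.55. That gene, CYP71A20, had 5.11 RPKM in PEP45, 34.4 in SHR23, 11.9 in pye-1 and 28.2 in wild type without iron (-1.14). THAH and THAS1, of the thalianol pathway, had 17.8 and 7.64 RPKM in PEP45, 30.9 and 12.6 RPKM in pye-1, and 50.9 and 30.3 RPKM in wild type without iron. Of the 12 terpene genes, 11 fell in PEP45 and 4 fell in pye-1 in the authors' deposited tables, relative to the same wild-type libraries, a difference that was not tested. Of all kept genes, 8.73% fell in PEP45 and 9.19% fell in pye-1 in those deposited tables of the authors. Of 8 kept jasmonate repressor genes 7 were below 0, with a median of -0.37 and the largest difference in JAZ7, at 1.199 RPKM in PEP45 and 2.17 RPKM in pye-1 (-0.65).

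Markers of root tissues were near 0 on average, with root hair genes somewhat higher. Of 17 kept root hair genes 14 were above 0 and 1 was at least 2-fold higher, with a median of 0.39. Over all kept genes, 50.2% were above 0 and 1.05% were at least 2-fold higher. The median level of the 17 genes was low, at 2.67 RPKM in PEP45 and 1.49 RPKM in pye-1. A gene kept through PEP45 alone is above 0 by the minimum of 1 RPKM, and without that minimum the median difference of the list was 0.32. RHS19, a root hair specific peroxidase gene, had 5.06 RPKM in PEP45, 3.70 in SHR23, 2.92 in WER13, 15.0 in WER65, 18.002 in PPL, 2.07 in pye-1, 25.2 in wild type without iron and 62.5 in wild type with iron (1.12). RHS13 had 9.37 RPKM in PEP45, 4.97 in pye-1 and 42.3 in wild type without iron (0.85), and EXPA18, a root hair expansin, had 2.84 RPKM in PEP45, 1.47 in pye-1 and 11.7 in wild type without iron (0.76). The list thus stood near the low pye-1 level in PEP45. Of the 17 genes, 14 fell in PEP45 and 15 fell in pye-1 in the authors' deposited tables, relative to the same wild-type libraries, where 8.73% and 9.19% of all kept genes fell. Genes of the Casparian strip had a median of 0.23 (8 kept), those of xylem 0.13 (14 kept), of the root cap 0.30 (4 kept), of phloem 0.06 (6 kept), of cell division 0.05 (12 kept) and of suberin -0.02 (18 kept), and no member of these lists was past 2-fold. CASP1, a Casparian strip membrane protein, had 40.3 RPKM in PEP45, 26.7 in pye-1 and 84.8 in wild type without iron (0.59).

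Among 22 kept aquaporin genes 2 were at least 2-fold higher, where 1.05% of all kept genes were, and the median was 0.17. PIP2;6 had 3.70 RPKM in PEP45, 0.797 in SHR23, 0.341 in WER13, 0.0993 in WER65, 0.381 in PPL, 1.44 in pye-1, 1.28 in wild type without iron and 1.74 in wild type with iron, the highest value being that of PEP45. TIP2;1, a tonoplast aquaporin, had 15.9 RPKM in PEP45, 7.36 in pye-1 and 27.0 in wild type without iron. Low-oxygen genes, which were high in both groups relative to wild type with iron, had a median of 0.02, with ADH1 at 735 RPKM in PEP45, 693 in pye-1, 299 in wild type without iron and 2.48 in wild type with iron. The clock (-0.03), phosphate (-0.16), ethylene (-0.15), redox (-0.21), salicylate defence (-0.29) and aliphatic glucosinolate (-0.10) lists had no member past 2-fold. The same was true of reported PYE targets (median 0.29), hair and non-hair fate (0.14), ground tissue regulators (0.03), sugar transport (0.13) and zinc and copper (-0.07). SHR23 differed from PEP45 in glucosinolate genes by value, with BCAT4, of aliphatic glucosinolate synthesis, at 9.19 RPKM in PEP45, 86.6 RPKM in SHR23 and 9.62 RPKM in pye-1, named after its values were seen.

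**Figure D5:**
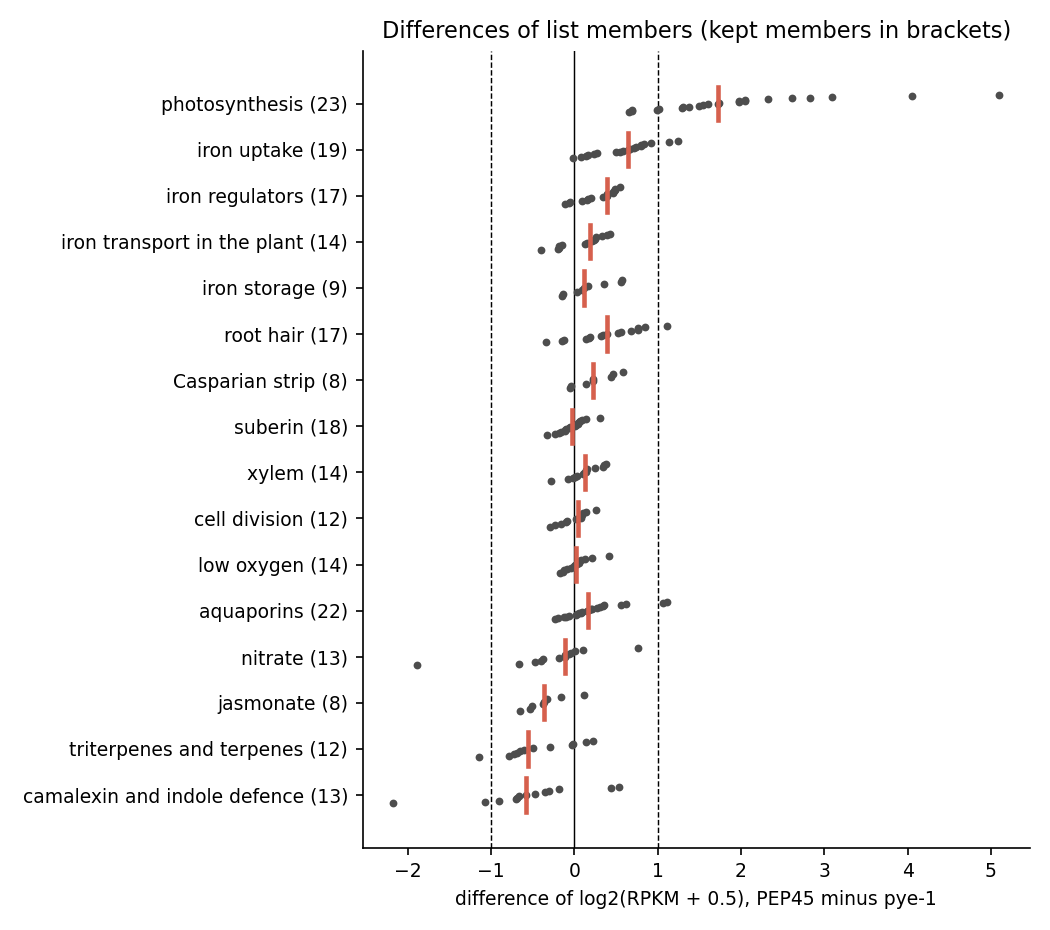
Difference of log2(RPKM + 0.5), PEP45 minus pye-1, for each kept member (points) of 16 gene lists, with the number of kept members in brackets, list medians as red bars and 2-fold limits as dashed lines. Photosynthesis (median 1.73) lies farthest right, iron uptake (0.65) next, and camalexin and indole defence (-0.57) and terpenes (-0.55) farthest left.

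Genes of microRNA precursors were higher in PEP45 than in pye-1 as a class, with pye-1 the lowest group by sum. Their summed level was 291 RPKM in PEP45, 323 in SHR23, 268 in WER13, 248 in WER65 and 299 in PPL. It was 185 RPKM in pye-1, 294 in wild type without iron and 308 in wild type with iron. Of 40 kept microRNA genes, 35 were above 0 and 11 were at least 2-fold higher, with none 2-fold lower and a median difference of 0.56. Of all kept genes, 50.2% were above 0 and 1.05% were at least 2-fold higher. Genes kept through PEP45 alone are above 0 by the minimum. In 21 of the 40, pye-1 was the lowest of the 7 iron-deficient groups, against 3140 of all 18821 kept genes. The minimum kept 40 of 178 microRNA genes and was applied to PEP45 and pye-1 alone. This rank count and the sums by group therefore follow in part from that rule. The precursor gene MIR160c had 47.4 RPKM in PEP45, 48.7 in SHR23, 39.2 in WER13, 32.1 in WER65, 53.2 in PPL, 16.8 in pye-1, 45.7 in wild type without iron and 37.5 in wild type with iron, and fell in pye-1 in the authors' deposited table (q = 0.00274). MIR164b had 7.05 RPKM in PEP45, 5.89 in SHR23, 3.02 in WER13, 3.47 in WER65, 3.46 in PPL, 1.95 in pye-1, 5.05 in wild type without iron and 4.19 in wild type with iron. For both precursors pye-1 was the lowest of the 8 groups. PEP45 was the highest for MIR164b and lay below PPL and SHR23 for MIR160c. Both were named after their values were seen. The 53 kept small nuclear and nucleolar RNA genes had a median of 0.36, with 6 higher and 1 lower. The 373 kept genes of no named class, not annotated as protein-coding, had a median of 0.13, with 17 higher and 4 lower. Over all kept genes, 1.05% were higher and 0.271% lower. The minimum kept 53 of 84 and 373 of 6349 genes of these 2 classes, so its limit holds for them too. Genes shorter than 1 kilobase have fewer reads behind each RPKM.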

How the data were processed

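RNA of roots was made into poly(A)-selected, directional libraries, per the labels' protocols. Per the submitters' processing notes, TAIR10, FastQC, TopHat2 and edgeR were used, with no versions, order or roles. How reads were counted, and with what strand setting, is not stated. The authors deposited RPKM values of 33602 genes, with 1 column for each of 8 groups of 3 samples. Q-values came from the authors' deposited tables, which hold listed genes only, with the test not stated. A deposited sheet gives in words where each promoter is active.

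From these, genes with at least 1 RPKM in PEP45 or pye-1 were kept, 0.5 RPKM was added, log2 was taken and differences of 1 or more were called, with no test. The planned limma fit needed values per library and was not run. Of the gene IDs, 32835 matched RefSeq's TAIR10.1, whose chromosome lengths are those of TAIR10 and from which 250 bases upstream of each gene were read. The calling was tested on simulated data with counting noise alone, where changes larger than 2-fold were planted in genes of at least 5 RPKM. That test does not bear on calls near 2-fold, on genes under 5 RPKM or on variation between plants. The members and the 33 gene lists were chosen with earlier results of these data known. Genes named are PYE, the 12 largest differences each way with at least 5 RPKM in the higher group, up to 4 members of a list described (8 for iron lists) by size of difference, and a fixed panel of iron genes, AT1G09750 and SCR. Others are said to be chosen after their values were seen. Python 3.11.15, pandas 2.3.3, numpy 2.4.6 and matplotlib 3.10.9 were used.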

Additional observations from a re-analysis of the deposited data

How the results depend on the processing

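The count of genes at least 2-fold apart, 249, depended on how low values were treated. With a pseudocount of 0.1 RPKM, 87 genes were lower in PEP45, against 51 with 0.5 RPKM. With 1 RPKM the counts were 157 in all, 126 higher and 31 lower, and with 5 RPKM they were 38, 31 and 7. With a minimum of 5 RPKM in either group they were 111, 84 and 27. At 1.5-fold they were 875, 609 and 266, and at 3-fold 73, 65 and 8. Higher genes outnumbered lower ones under each of these settings. Without a minimum, after centring on the median, after quantile normalization, without photosynthesis and plastid-encoded genes and with nuclear protein-coding genes only, the counts in all were 291, 249, 237, 188 and 179, within 1.5 times the main count, the last 2 settings having been added after the values were seen. The split between higher and lower moved to 173 and 64 under quantile normalization, against 198 and 51.

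Of 210 list medians recomputed, 209 kept their side of the 2-fold limit, of which 3 near 0 changed sign: low oxygen (-0.025 after quantile normalization), and cell division (-0.083) and clock (0.038) with a minimum of 5 RPKM. The photosynthesis median, the only one of these past that limit in the main setting, was 0.96 with a pseudocount of 5 RPKM, under that limit. The other medians began under it, so keeping their side says little about their stability. Of 287 values of single genes, 279 kept their call and 8 dropped below 2-fold, all with a pseudocount of 5 RPKM. A minimum of 5 RPKM or no minimum leaves the value of a single gene as it is, and centring moved it by 0.000555. Those settings, with 41 values each, left almost no room for a changed call. No paired analysis was possible because each group has 1 column. For the same reason no replicate could be left out, so whether 1 PEP45 or pye-1 library carries a difference, that of the photosynthesis genes included, cannot be seen from these values. At 1 RPKM a gene of 1 kilobase rests on about 57.8 reads in PEP45, and short genes on fewer.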

Other observations

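Some genes were higher in both PEP45 and pye-1 than in wild type without iron and were at least 2-fold higher in PEP45 than in pye-1. They were chosen after their values were seen. AT3G13840, a GRAS family transcription factor gene, had 26.1 RPKM in PEP45, 26.6 in SHR23, 24.5 in WER13, 12.3 in WER65, 0.0519 in PPL, 11.5 in pye-1 and 0.159 in wild type without iron. AT1G02700, described as a GATA transcription factor-like gene, had 11.1 RPKM in PEP45, 21.1 in SHR23, 15.6 in WER13, 9.27 in WER65, 0.552 in PPL, 4.93 in pye-1 and 0.536 in wild type without iron. The seed storage albumin gene SESA2 had 25.1 RPKM in PEP45, 37.8 in SHR23, 18.5 in WER13, 11.3 in WER65, 3.11 in PPL, 7.37 in pye-1 and 4.92 in wild type without iron. In all 3 genes SHR23 was the highest group and PPL was near wild type. In the authors' deposited tables AT3G13840 and AT1G02700 rose in both PEP45 and pye-1, and SESA2 rose in PEP45, each relative to iron-deficient wild type.

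The heat shock list, with 9 kept genes, had 8 below 0 and a median of -0.11. The exception, HSP21, a small heat shock protein of plastids, had 1.34 RPKM in PEP45 and 0.542 RPKM in pye-1 (0.82). Among cold and abscisic acid genes, KIN2 had 379 RPKM in PEP45, 224 in pye-1 and 66.1 in wild type without iron (0.76). None of these lists had a member past 2-fold.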
